A study of Mus musculus with 2 samples.

Results

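The GIMAP genes (GTPases of the immunity-associated proteins) of the mouse were examined in regulatory T cells with and without the transcription factor Bach2. All 8 genes given by symbol were on the array: Gimap1, Gimap3, Gimap4, Gimap5, Gimap6, Gimap7, Gimap8 and Gimap9. They were chosen by gene symbol, and every probe that the platform annotation pairs with one of these symbols was kept, which gave 11 probes among 25697. The family was picked for description after the intensities of these same arrays were known, so its values are a description and carry no test. Of 7611 named genes detected on at least 1 array, 8 were GIMAP genes.

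Both samples were CD4+ CD25+ GITR+ cells sorted from the spleen, on the C57BL/6 background. The wild-type (WT) sample was from a donor of 6 weeks and the Bach2 KO sample from a donor of 7 weeks, and both were labelled male. The labels do not give the number of animals behind a sample, nor how the Bach2 allele was made. There was 1 array per genotype, so the spread between animals is not known, no p-value is given, and age, sex and genotype cannot be told apart.

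GIMAP proteins are small GTPases with a shared AIG1-type GTP-binding domain, encoded side by side in 1 cluster and expressed mainly in lymphocytes. Several are anchored to internal membranes, and they are best known for keeping resting T cells alive: rodents that lack Gimap5 lose peripheral T cells, and mice without Gimap1 in their lymphocytes have few mature T and B cells. Gimap3 and Gimap5 were reported to bind the survival proteins Bcl2 and Bcl2l1 in mouse cells, and GIMAP6 binds the autophagy protein GABARAPL2 in human cells. Bach2 is a bZIP factor that represses effector genes in lymphocytes and helps to keep T cells in a naive or resting state.

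In RefSeq gene order (GRCm38.p6) the cluster on mouse chromosome 6 reads Gimap8, Gimap9, Gimap4, Gimap6, Gimap7, Gimap1, Gimap5 and Gimap3, with no other protein-coding gene between them. RefSeq windows of 250 bases before to 50 after a transcription start were found for all 8 genes, 9 windows in all, since Gimap8 has a pair of starts. The windows of 3 genes are shown as examples. In the differences described below, Gimap6 was the furthest below wild type, Gimap1 was lower at both of its probes, and Gimap7 was slightly higher. Gimap4, the furthest above wild type, is not shown. Capitals mark matches to GGAAGT, the core read by ETS factors, and to TGTGGT, the core read by Runx factors, on either strand (ACTTCC and ACCACA are their reverse complements).
Gimap6, chr6:48708195-48708494, minus strand: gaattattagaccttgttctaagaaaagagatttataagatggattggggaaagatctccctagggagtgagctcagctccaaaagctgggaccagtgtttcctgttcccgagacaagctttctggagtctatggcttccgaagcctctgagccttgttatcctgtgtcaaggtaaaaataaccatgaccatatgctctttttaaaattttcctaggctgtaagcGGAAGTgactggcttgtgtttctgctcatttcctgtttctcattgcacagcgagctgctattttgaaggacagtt
Gimap1, chr6:48738797-48739096, plus strand: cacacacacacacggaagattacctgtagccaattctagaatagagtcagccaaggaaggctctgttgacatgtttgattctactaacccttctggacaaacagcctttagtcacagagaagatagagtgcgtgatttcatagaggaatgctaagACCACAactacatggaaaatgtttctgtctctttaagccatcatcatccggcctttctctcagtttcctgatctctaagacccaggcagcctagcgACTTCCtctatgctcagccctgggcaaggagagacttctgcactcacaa
Gimap7, chr6:48718371-48718670, plus strand: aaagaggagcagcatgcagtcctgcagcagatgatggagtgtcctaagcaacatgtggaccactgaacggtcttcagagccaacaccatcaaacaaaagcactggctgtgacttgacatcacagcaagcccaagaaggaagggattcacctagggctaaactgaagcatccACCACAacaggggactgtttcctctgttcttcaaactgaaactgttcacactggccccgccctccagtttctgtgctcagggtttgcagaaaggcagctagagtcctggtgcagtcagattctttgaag

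A match to the ETS core was present at position -25 from the start in Gimap6 and at position 2 in Gimap1, and none was found in the Gimap7 window. None was found either in the windows of Gimap3 and Gimap8, which were lower in the knockout, or of Gimap4, which was higher. The Runx core matched at position -95 in Gimap1 and at position -79 in Gimap7. Over the whole cluster 4 of 9 windows held the ETS core (Gimap1, Gimap5, Gimap6 and Gimap9), against 23.8% of all 32851 windows of this length. The Runx core was in 3 of 9 (Gimap1, Gimap4 and Gimap7), against 16.8% of all windows. The palindrome TGANTCA, the AP-1 core that also lies within the longer Maf and Bach recognition element, matched in 0 of 9 windows, against 7.81% of all. The Foxo core GTAAACA was in the Gimap3 window alone (3.65% of all windows), and the short Klf core CACCC was in 6 of 9 (57.5% of all). No pair of the 22 matches overlapped within a window. The Gimap8 windows share bases, however, so the CACCC at -60 in one is the same site as that at -187 in the other. The 6 windows with the Klf core thus belong to 5 genes. These are matches of letters in a short window, and no binding was measured.

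Transcripts of the GIMAP family were at similar levels on both arrays. Of the 8 genes, 6 had a lower intensity in the knockout and 2 a higher one. Among all 7611 genes compared, 4027 were lower and 3556 higher. In either direction 0 of 8 GIMAP genes reached 1.5-fold. Over all genes compared, 6.77% were lower by 1.5-fold or more in the knockout and 8.15% were higher by as much. At a threshold of 2-fold the count was again 0 of 8, beside 1.55% of all genes lower and 3.27% higher. Most genes of the array were also within 1.5-fold (85.1%), so a count of 0 among 8 genes does not set the family apart. The log2 differences, always knockout minus wild type, ran from -0.47 to 0.25, with a median of -0.28. The median over all genes was -0.02, with quartiles of -0.24 and 0.21. The family's median was thus lower than the lower quartile of all genes, while its count past 1.5-fold was 0. In the plot of probe intensities by array, the paired symbols lie close together for every probe.

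**Figure D1:**
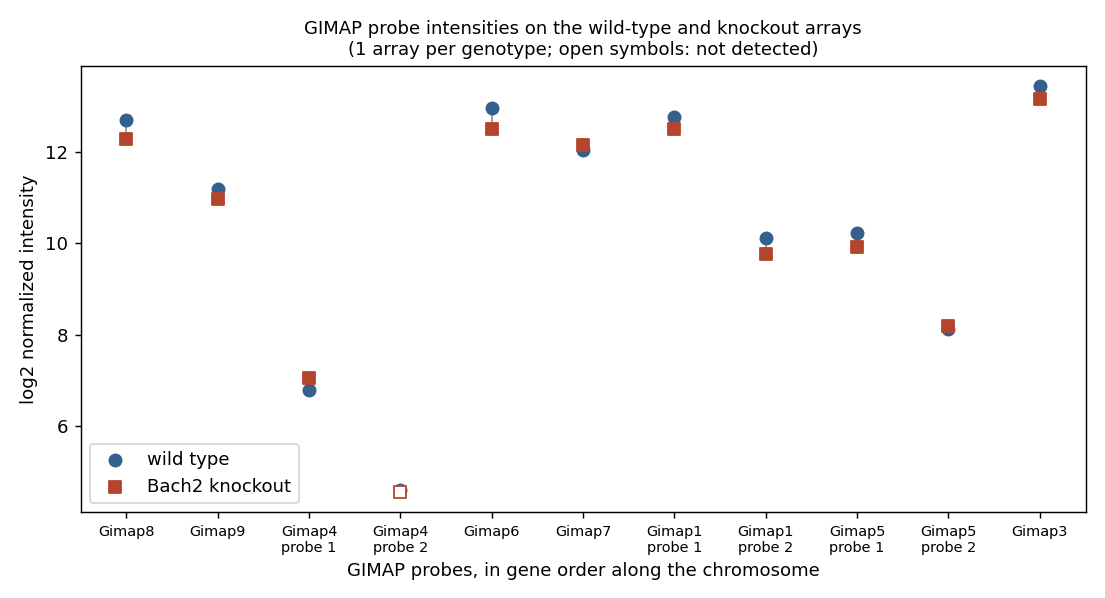
Normalized log2 intensity (vertical axis) of each of the 11 GIMAP probes on the wild-type array (blue circles) and the Bach2 knockout array (red squares), in gene order along the chromosome; open symbols are probes not detected on either array. The symbols of a probe differ by at most 0.47 on the log2 scale, and brightness is not comparable between probes.

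The values below are given first as the deposited intensity, which is linear and background-subtracted, and then as the log2 difference after normalization. Detection required a p-value under 0.01, and for each gene the brightest detected probe stands for it. Gimap6, whose human counterpart takes part in autophagy, read 7606 in wild type and 5918 in the knockout. After normalization it was 1.38-fold lower (log2 -0.47), and 11.0% of all compared genes had a lower difference. Gimap8, a larger member with several GTP-binding domains in tandem, read 6365 in wild type and 5066 in the knockout. It was 1.33-fold lower (-0.42), and 12.9% of compared genes had a lower difference. Both genes were lower on the knockout array, and each has a single probe, so no second measurement within the array is at hand.

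Gimap1, needed by mature lymphocytes in mice, was measured by 2 probes. The brighter one read 6746 in wild type and 5870 in the knockout, a difference of -0.28, and the other read 1070 and 873 (-0.35). Both Gimap1 probes were thus lower on the knockout array, by 1.21-fold and 1.27-fold. Gimap3, a close relative of Gimap5, read 10825 in wild type and 9364 in the knockout, a difference of -0.28 at its only probe.

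Gimap5, the member whose loss depletes T cells in rodents, gave no single direction. Its brighter probe read 1157 in wild type and 974 in the knockout (-0.30), and its other probe read 258 in wild type and 281 in the knockout (0.07). Both probes were detected on both arrays and are annotated to the same RefSeq transcript, so the sign for Gimap5 rests on the choice of probe. Gimap9 read 2278 in wild type and 2002 in the knockout at its only probe, a difference of -0.22.

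Gimap7 and Gimap4 went the other way. Gimap7, a GTPase that is stimulated by dimer formation in the human protein, read 4174 in wild type and 4633 in the knockout, and was 1.08-fold higher (0.11). Gimap4, which was linked to T cell death and to secretion of cytokines, read 94.7 in wild type and 117 in the knockout at its detected probe, and was 1.19-fold higher (0.25). Its other probe, annotated to another RefSeq transcript of the gene, was not detected on either array (detection p-values of 0.530 and 0.658), so no fold is given for it. The Gimap4 result therefore rests on a single probe, and the deposited intensity behind it is small.

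The only technical measure of error at hand is the scatter among probes of the same gene, whose differences had a pooled SD of 0.23 on the log2 scale over 1734 genes. Within the intensity range of the detected GIMAP probes this SD was 0.20, over 1346 genes. At the brightest probe, the difference was larger than 0.23 in size for 6 of 8 GIMAP genes. These were Gimap1, Gimap3, Gimap4, Gimap5, Gimap6 and Gimap8, while Gimap7 and Gimap9 were smaller. The other Gimap5 probe (0.07) was smaller too, and Gimap4 rests on a single dim probe. Against the SD of 0.20, 7 of 8 were larger, all but Gimap7. This SD does not hold the spread between animals or between arrays, so it cannot say whether a difference of 0.3 would recur in other mice. The share of all genes past these SDs was not counted, but their quartiles, -0.24 and 0.21, were of similar size. Differences as large as these SDs were thus common among all genes, and the counts of 6 and 7 do not set the family apart. Restricting all genes to those detected on both arrays within the GIMAP genes' intensity range left 5973, of which 6.06% were at least 1.5-fold lower and 7.52% at least 1.5-fold higher, with a median of -0.03.

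Along the chromosome, the higher genes Gimap4 and Gimap7 lay among the lower ones, on either side of Gimap6. Among the 10 protein-coding genes on each side, 16 of 20 had a probe and 8 had a detected one. Immediately next to Gimap3, Tmem176b and Tmem176a, which encode a pair of related membrane proteins of immune cells, differed by -0.11 and -0.10. On the other side of the cluster Repin1, a zinc finger gene, was 1.65-fold higher in the knockout (wild type 7.38 and knockout 8.10 on the log2 scale). Its other probe was detected in the knockout only, and on the series matrix values Repin1 was 1.42-fold higher, short of 1.5-fold.

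Further out, Krba1 and the zinc finger gene Zfp467 were 1.59-fold and 1.57-fold lower. The other detected Krba1 probe differed by -0.18, and with median scaling neither gene reached 1.5-fold; nor did Zfp467 on the series matrix values, or Krba1 with the mean of its detected probes. Igf2bp3, an mRNA-binding protein known from fetal and tumour tissue, was detected in the knockout only and was at least 2.62-fold higher there, set against the dimmest detected probe of the wild-type array (at least 1.61-fold on the series matrix values). Gpnmb differed by 0.30, and Aoc1, detected in the knockout only, was at least 1.16-fold higher. Thus 2 of 8 detected neighbours were at least 1.5-fold lower and 2 at least 1.5-fold higher, while 0 of 8 GIMAP genes were past either line. Over all genes compared, 6.77% were lower and 8.15% higher by as much. Under the other settings, 0 to 2 neighbours were lower and 1 to 2 higher. These counts are small, and the difference between both sets was not tested. The sets also differ in intensity: Repin1, Gpnmb, Aoc1 and Igf2bp3 read lower on both arrays than every GIMAP gene but Gimap4. The map of differences in chromosomal order shows these values.

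**Figure D2:**
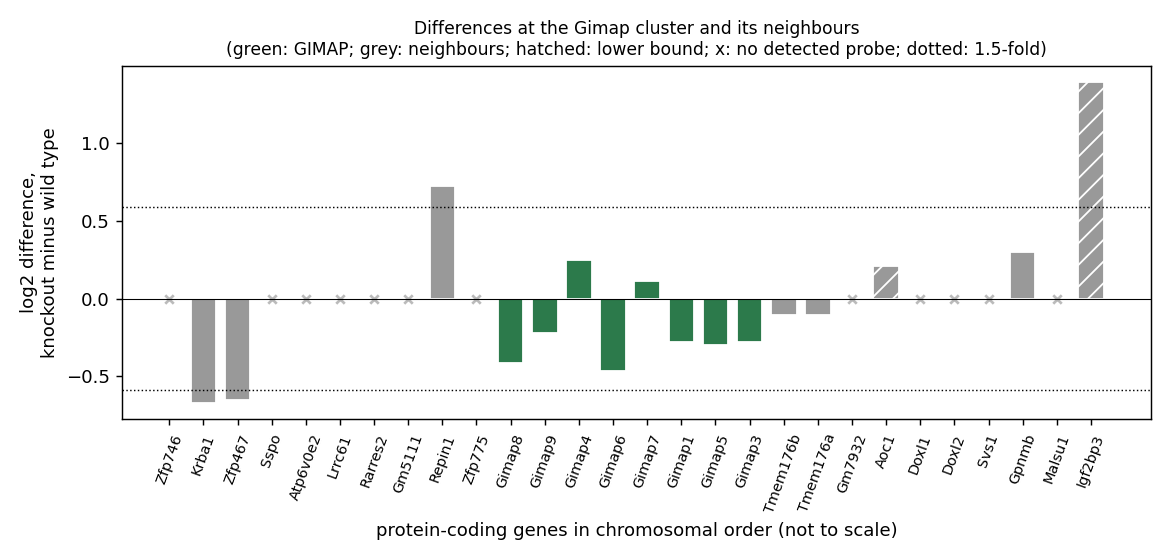
Log2 difference, knockout minus wild type (vertical axis), of the 8 GIMAP genes (green) and of the 10 protein-coding genes on each side (grey) in RefSeq order; hatched bars are lower bounds for genes detected on 1 array and crosses are genes with no detected probe. The green bars stay inside the dotted 1.5-fold lines, between -0.47 and 0.25, and Repin1, Krba1, Zfp467 and Igf2bp3 cross them.

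Genes whose products are known partners of GIMAP proteins, or act in survival and autophagy beside them, differed little as a list. Of 21 genes, 20 had a probe and 19 were detected, 1 was lower by 1.5-fold or more and 0 were higher by as much, with a median of 0.02 beside -0.02 for all genes. The gene past the line was Bcl2, the survival protein that Gimap3 and Gimap5 were reported to bind. The brightest Bcl2 probe was at log2 11.48 in wild type against 10.69 in the knockout, 1.73-fold lower, and the other 5 detected probes differed by -0.78 to -1.58. All 6 detected Bcl2 probes were therefore lower on the knockout array, by more than any GIMAP probe was.

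Other genes of this list varied less. Mcl1, a survival relative of Bcl2, differed by -0.43, and Bcl2l1, which encodes Bcl-xL, was detected in the knockout only and was at least 1.22-fold higher. Gsk3b, a kinase that Gimap5 restrains in mouse T cells, differed by -0.58, just short of the 1.5-fold line. Of the autophagy genes, Atg7 differed by 0.54, Gabarapl1 by 0.46 and Map1lc3b by -0.35. Gabarapl2, whose human counterpart is bound by GIMAP6, differed by 0.03 at its brighter probe and by 0.73 at a dimmer one. Il7r, the interleukin 7 receptor that sustains resting T cells, differed by 0.09. The proapoptotic gene Bax had no probe in the annotation used here.

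A list of genes of naive and resting T cells, the state in which GIMAP genes are known to be highly expressed, lay lower than the GIMAP genes did. Of 26 genes, 24 had a probe and 19 were detected, and 12 of these were at least 1.5-fold lower in the knockout, 6 at least 2-fold lower and 0 at least 1.5-fold higher. The median was -0.76, beside -0.28 for the GIMAP genes. Igfbp4 was 9.51-fold lower, Pik3ip1, an inhibitor of PI3 kinase, 3.50-fold, Il6st, the shared receptor chain of interleukin 6 cytokines, 2.98-fold and the homing receptor Ccr7 2.35-fold. Tob1, an antiproliferative protein, was 2.34-fold lower, and Dapl1, detected in wild type only, was at least 3.95-fold lower. On the series matrix values Igfbp4 was 5.98-fold lower and Dapl1 at least 2.11-fold. Klf2, a factor of T cell quiescence and trafficking, was at log2 12.65 in wild type against 12.08 in the knockout (-0.57, 1.48-fold lower). The list was drawn up with these results known, and Bcl2 and Il7r stand in it and in the partner list, so its direction is no independent evidence.

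Other GTPases of immune cells and their regulators showed a median near that of all genes. Of 24 such genes, 17 were detected, 2 were at least 1.5-fold lower and 0 at least 1.5-fold higher, with a median of -0.01. The interferon-induced antiviral GTPase Mx2 was 1.74-fold lower and the Ras relative Rras2 1.54-fold lower. On the series matrix values both fell short of 1.5-fold (-0.46 and -0.57), and with median scaling so did Rras2 (-0.54). Tgtp1 (-0.50), Irgm2 (-0.39), Rab27a, a GTPase of granule release (0.41), and Gbp10 (0.38) stayed inside the line. In the plot of lists the GIMAP median lies between those of the quiescence genes and the other GTPases.

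**Figure D3:**
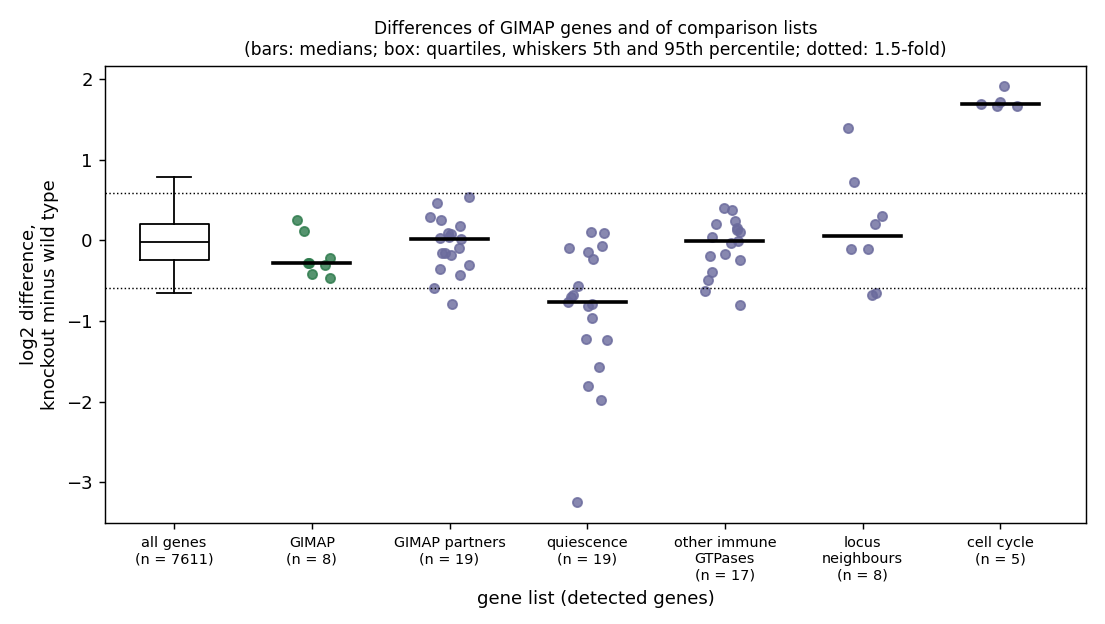
Log2 difference, knockout minus wild type (vertical axis), of each detected gene in the GIMAP family (green), in 4 comparison lists and in the cell cycle genes (violet), with the distribution over all 7611 genes as a box (quartiles, with whiskers at the 5th and 95th percentile). Thick bars are medians: -0.28 for GIMAP, -0.76 for quiescence genes and 1.69 for cell cycle genes.

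The median GIMAP point was at 12.37 in wild type and 12.21 in the knockout on the log2 scale, each median taken on its own array. By intensity on both arrays, the genes nearest to it were Gtpbp2, Brk1, Wipf1, Dctn2 and Snx17. These genes differed by -0.16 to -0.11. They were picked for lying near that point, so their differences were bound to be close to its own. Their size therefore says nothing beside the family's median difference of -0.28. Their distances in the plane of both log2 intensities were 0.03 to 0.05. With 2 arrays, and with brightness that depends on the probe, this likeness describes position in the plot and nothing more.

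Several facts of the samples stand beside these values. The T cell and regulatory T cell identity genes stayed within 1.5-fold: 0 of 8 detected T lineage genes and 0 of 5 regulatory T cell markers reached it. The largest of these differences was that of Cd5, at -0.37. Foxp3 differed by -0.10 at its brightest probe, and by -0.37 and 0.11 at its other probes. Il2ra differed by -0.02. Xist was detected in the knockout only, although both samples are labelled male. The Y-linked genes Kdm5d and Eif2s3y were 6.37-fold (4.17-fold on the series matrix values) and 3.60-fold lower there but still detected. Uty, also Y-linked, was detected in wild type only and was at least 2.05-fold lower in the knockout. These values go against the sex label of the knockout sample. No probe was paired with Bach2, so the deletion itself was not analysed here.

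Markers of some other cells moved too, and those of others did not. The 2 detected myeloid markers, Lyz2 (0.04) and Adgre1 (-0.14), stayed within 1.5-fold. So did Cd8b1 (0.20), the only detected CD8 T cell marker. Of 3 endothelial markers, Cdh5 and Kdr were not detected on either array, and Pecam1 was 2.54-fold lower in the knockout. A single gene does not show a change in endothelial cells. All 5 detected NK cell markers were higher by 1.5-fold or more, with a summed normalized intensity 2.78 times that of wild type, and Ncr1 was not detected. On the series matrix values 2 of these 5 reached 1.5-fold, and 3 did with an offset of 50 or without normexp. Likewise the 5 mast cell and basophil genes were higher (2.73 times in sum), whereas the 5 detected neutrophil genes were lower (0.20 times) and so were both detected red cell genes (0.42 times). Of 7 B cell markers with a probe, Ms4a1, Pax5 and Blk were not detected, Cd79a was detected in wild type only (-0.12), Cd79b and Cd22 were higher, Fcmr was lower, and the summed intensity of the detected ones was 1.33 times that of wild type. The summed intensity of the 8 GIMAP genes was 0.82 times that of wild type. All 5 detected cell cycle genes were at least 2-fold higher, with a median of 1.69. GIMAP genes are transcribed in several lymphocyte types, and the part of any of these in the GIMAP values was not tested. In a sorted bulk sample, fewer cells with a transcript and less transcript per cell cannot be told apart.

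The sign of each GIMAP gene was the same under all 10 other ways of processing that were run. Gimap6 ranged from -0.47 to -0.32, Gimap8 from -0.42 to -0.29 and the family's median from -0.28 to -0.17. Gimap4 ranged from 0.14 to 0.31 and Gimap7 from 0.11 to 0.19. The exception is the second Gimap5 probe, taken on its own, which was higher in the knockout. The values of Gimap6 and Gimap8 nearest to 0 came with median scaling, which also moved the balance of calls over all genes: 33.4% of the genes past 1.5-fold were then lower in the knockout, against 45.4% after quantile normalization.

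**Figure D4:**
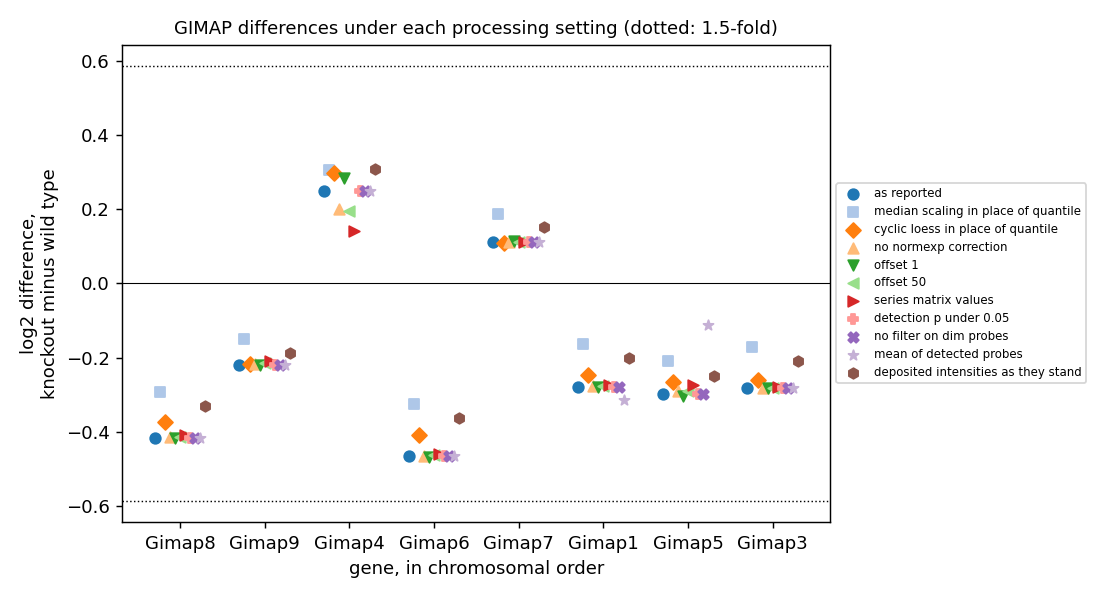
Log2 difference, knockout minus wild type (vertical axis), of each GIMAP gene under the reported setting and 10 others (symbols, listed in the legend). For Gimap6 the values run from -0.47 to -0.32, no gene crosses 0, and no gene reaches the dotted 1.5-fold lines.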

How the data were processed

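Biotin-labelled RNA of 1 sample per genotype was measured on Illumina arrays, per the labels. The authors deposited an intensity per probe and array, called non-normalized in the header. A detection p-value was deposited beside every intensity. These intensities had been background-subtracted by the authors, since 30.4% and 29.5% were below 0. The sources used here do not give the scanner software. A deposited series matrix holds intensity values that are a straight line of the first table on each array, so it is not independent, and its median values were 99.7 and 95.6. It is linear, with a constant left in.

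Probes were named by the platform annotation (23978 of 25697). Intensities were corrected by normexp using the detection p-values, with an offset of 16, quantile normalized and put on log2 (neqc, limma 3.58.1, R 4.3.3). Quantile normalization hides a shift shared by all genes. Detection was at a p-value under 0.01, and a gene was its brightest detected probe. A gene detected on 1 array was counted by a bound, the brighter value set against the other array's dimmest detected probe, or against the gene's own value there if that was higher. The steps were tested on simulated data. No test was possible with 1 array per genotype.

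Members and lists were chosen with earlier results of these data known. Genes named were the members, their detected neighbours, up to 6 of each list with the largest differences (bounds where detected on 1 array), Bcl2, Il7r, Bax, Gabarapl2, Gsk3b and Klf2 whatever their value, and label checks. Bcl2l1 and the markers of other cells were named after their values were seen. Gene order and promoter windows are from RefSeq (GRCm38.p6). Alternatives covered normalization, background, offset, value table, filter and gene summary. Probe sequences were not used here, so cross-hybridisation among GIMAP paralogs could not be checked.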

Additional observations from a re-analysis of the deposited data

How the results depend on the processing

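The GIMAP counts (0 of 8 past 1.5-fold or 2-fold in either direction, 6 of 8 below 0) and the medians of the GIMAP genes and the 4 comparison lists stayed the same, or within the scatter among probes, under the 10 other settings run. The number of all genes at least 1.5-fold lower (515) was 343 with an offset of 50, 223 on the series matrix values and 798 with no filter on dim probes; that at least 2-fold lower (118) was 76 and 54 under the first 2 of these. On the series matrix values 371 genes were at least 1.5-fold higher (620 as reported) and 127 at least 2-fold higher (249). The larger constant in both the offset of 50 and the series matrix draws differences of dim genes towards 0, and the absence of a filter adds genes. Among single genes, marker lists and counts within lists, 77 of 1133 values moved by more than the scatter or by over 1.5 times. No difference of 1.5-fold or more changed sign. Of the smaller ones among single genes and marker lists, 19 values did, for 10 results. Among them were Bid, Peli1, Gbp7 and Arhgdib with the mean of detected probes, and Gimap5 and Gimap4 at their other probes (the latter undetected). Medians of 2 comparison lists near 0 also changed sign under some settings. The partner list (0.02 as reported) fell as low as -0.05, and the other immune GTPases (-0.01) rose as high as 0.11. Comparing genes only within the GIMAP intensity range, using deposited intensities as they stand, and the probe scatter in that range were added after the data were seen. With 1 array per genotype no replicate could be left out. No paired analysis was possible because each group holds a single sample. The number of arrays limits precision, and Gimap4 is the member whose intensity was nearest to the detection limit.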

Other observations

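The neighbour furthest above wild type, Igf2bp3, has 2 probes, and both were detected in the knockout only, with normalized differences of 1.53 and 1.23 before any bound. RefSeq lists Gimap5 among the synonyms of Gimap3, so results given elsewhere under the name Gimap5 may refer to either gene. On these arrays the Gimap3 probe and the brighter Gimap5 probe differed by -0.28 and -0.30, and the dimmer Gimap5 probe by 0.07.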
